A study of Rattus norvegicus with 6 samples.

Results

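MicroRNAs and small interfering RNAs silence messenger RNAs through a shared set of proteins, and 10 genes of that set were looked up in arrays of neonatal rat heart muscle cells that had received an siRNA against uc.323 or a scrambled siRNA. The members were taken by gene symbol from the RefSeq transcript accessions printed for the probes. Of the 10 genes, 4 had at least 1 probe by this rule, out of 15168 genes named in the same way: Dgcr8, Xpo5, Tarbp2 and Tnrc6b. They had 8 of the 30367 probes of an array. The other 6 genes, Drosha, Dicer1, Ago1, Ago2, Tnrc6a and Tnrc6c, were matched to no probe through the RefSeq table and were not analysed here.

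In the nucleus, Drosha and its RNA-binding partner Dgcr8 crop the primary microRNA transcript to a hairpin, which exportin 5, the product of Xpo5, carries to the cytoplasm. Dicer1, with its double-stranded RNA-binding partner TRBP from Tarbp2, cuts the hairpin to a duplex, and 1 strand is kept by an Argonaute protein. The GW182 proteins, among them the product of Tnrc6b, bind Argonaute and bring the deadenylases that shorten the messenger's poly(A) tail. A transfected siRNA duplex needs no cropping or export and is loaded into Argonaute directly, and both groups here had received one. In heart muscle, microRNAs such as miR-1 and miR-133 are known products of this pathway.

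The cells were primary ventricular myocytes of male Sprague-Dawley rats aged 1 to 2 days, with fibroblasts reduced by preplating and bromodeoxyuridine in the medium. After 36 h in culture they received 50 nmol/L si-uc.323 or 50 nmol/L scrambled siRNA (si-scramble) with Lipofectamine RNAiMAX for 3 h, stayed without serum for another 21 h, and gave RNA 24 h after transfection. Each group had 3 cultures, described as independent experiments, with 1 array each, and the number of animals behind a culture is not given in the sources used here. uc.323 is a transcribed ultraconserved region, and the question, per the series title, was what it regulates in hypertrophy of these cells. Its own level was not analysed here.

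The silencing trigger itself is the 1 sequence that differed by design between the groups, and it is shown because it enters the machinery described here. The strand given in the labels and its reverse complement are printed 5′ to 3′ without the dTdT overhang, and the capitals mark bases 2 to 8, the seed with which an Argonaute-bound strand first pairs to a target. Which strand acted as the guide was not measured.
si-uc.323, strand as given: gGUAAGUAauuucagcaau
si-uc.323, reverse complement: aUUGCUGAaauuacuuacc
Each strand has 19 bases, of which 6 are G or C. None of 724 mature rat microRNAs in the RefSeq table of build GRCr8 has the seed of either strand, and none shares bases 2 to 7. The sequence of the scrambled siRNA is not given in the sources used here.

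The arrays differed in brightness. By the scan identifiers, si-uc.323 replicates 2 and 3 shared slide 2, with 78.2% and 86.4% of probes well above background. Replicate 1, with 72.4%, shared slide 1 with the 3 controls, which had 71.8% to 73.8%. Values are therefore given as scaled log2 intensities, the log2 processed intensity minus the array's own 75th percentile. Levels of different probes cannot be set against each other, so only differences between groups are compared. A log2 fold change is the si-uc.323 mean minus the si-scramble mean, fitted with limma over the 21990 probes that exceeded background clearly on each array of 1 group or of both. A probe was called at an adjusted p under 0.05 (Benjamini-Hochberg).

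Of 40 tested marker genes of 7 cell types, 1 was called, the fibroblast marker Postn (periostin, a matrix protein), which rose by 0.69 ± 0.12 (SE, adjusted p = 0.0311, limma). That is 2.5% called higher and 0% lower, against 3.31% and 2.99% of all tested genes. The groups did not overlap for 22.5% of the markers with higher values in si-uc.323 and 17.5% with lower values, against 20.1% and 19.0%. Among the 9 cardiomyocyte markers 1 was apart with higher and 3 with lower values, none called. The summed scaled linear intensity of 9 cardiomyocyte markers was 184 to 211 on si-uc.323 arrays and 205 to 215 on si-scramble arrays, and that of 9 fibroblast markers was 127 to 159 against 125 to 136. Each such sum is weighted toward the brightest probes of its list. Endothelial markers (5 tested) summed to 5.52 to 8.56 on si-uc.323 arrays and 11.0 to 12.4 on si-scramble arrays, and leukocyte markers (4 tested) to 2.95 to 3.20 against 3.76 to 3.87, so neither overlapped. These linear sums were mostly 1 gene each: Kdr, a receptor of vascular growth factor, read -0.76 (adjusted p = 0.0666, limma), and the macrophage marker Cd68 read -0.41 (adjusted p = 0.0649). Other tested markers of both lists went both ways, and none was called. Log2 fold changes were 0.46 for Tek, 0.06 for Ptprc and 0.14 for Csf1r, against -0.30 for Pecam1, -0.10 for Cdh5 and -0.06 for Cd163. Tie1 read 0.73, but its probe was well above background on 3 si-uc.323 arrays and 0 si-scramble arrays. It thus entered the test only through the group where it read higher. The 6 smooth muscle and mural markers summed to 8.85 to 10.3 against 8.48 to 9.05. Erythroid (3 tested) sums were 2.22 to 3.18 against 2.44 to 2.85, and Schwann and neural (4 tested) sums were 0.752 to 0.905 against 0.749 to 1.16. The part of these cells in the results below was not tested, and fewer cells of a type and less RNA per cell cannot be told apart in bulk RNA.

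Among the silencing genes, Tnrc6b read lower with si-uc.323 on its 3 probes, 1 of which was called. The called probe, with repeated spots, read 0.660 of the si-scramble level (95% interval 0.548 to 0.794, n = 3 and 3 arrays). Its call held in 12 of 20 alternative fits and was lost with the slide as a block (adjusted p = 0.272, limma). Slide 2 held only si-uc.323 arrays, so slide and treatment are largely confounded. The other Tnrc6b probes read 0.767 and 0.741 of the si-scramble level without passing the test. Tarbp2 and Dgcr8 had higher readings that did not pass, and the 2 Xpo5 probes pointed in opposite directions. In all, 7 of the 8 probes were bright enough to be tested, 1 was called lower and none higher, while 2.41% of all tested probes were called lower and 3.48% higher (5.89% in either direction). At an unadjusted p under 0.05 there were 4 of the 7 probes, against 28.3% of all tested probes. The groups did not overlap for 5 of the 7 probes, 1 higher and 4 lower, against 35.4% of all tested probes, 19.7% higher and 15.8% lower. These shares rest on 7 probes, 3 of them of 1 gene. The median log2 fold change of the 7 probes was -0.25, against 0.06 for all tested probes, and it was 0.044 when the brightest probe stood for each gene.

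**Figure D1:**
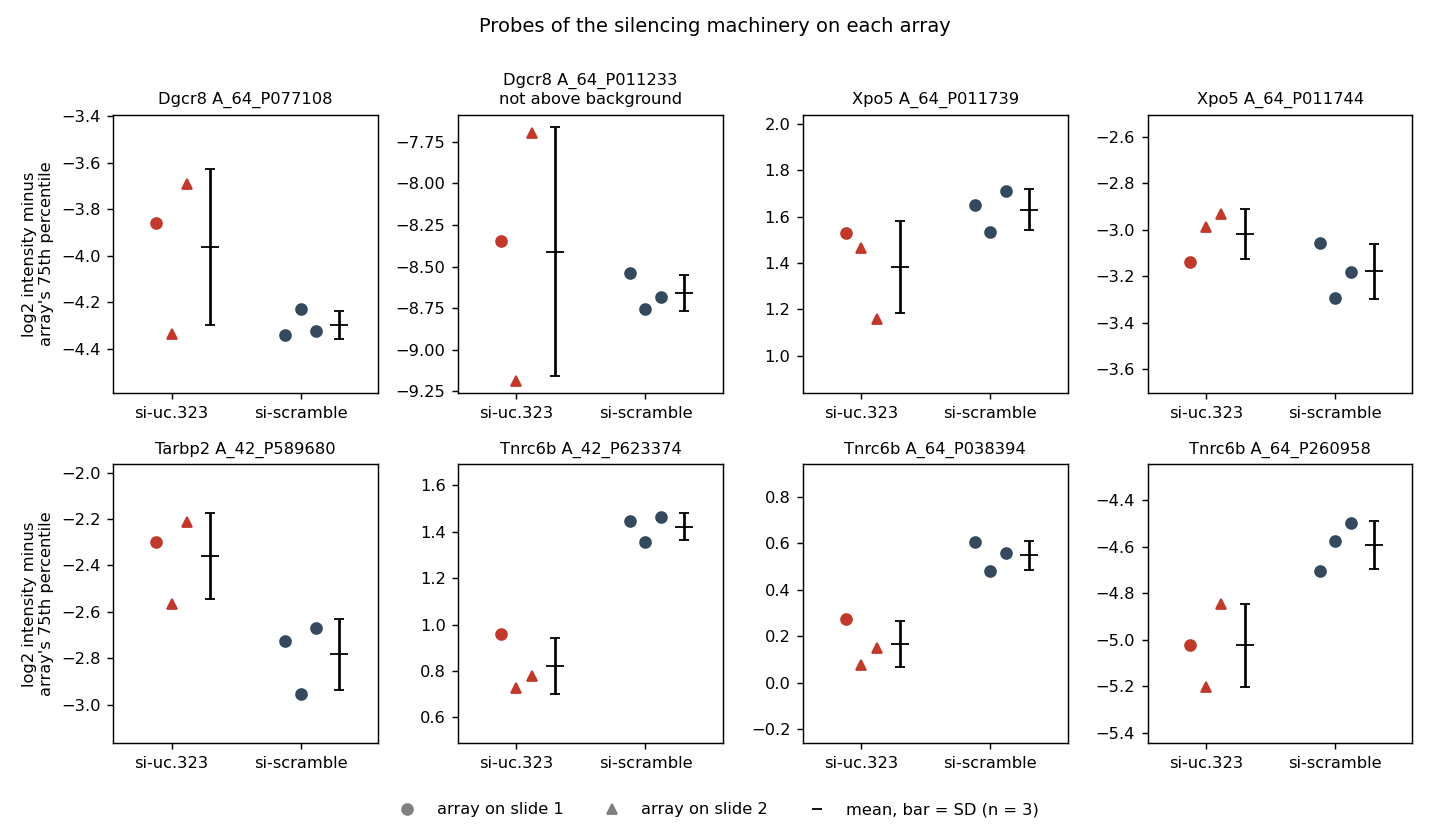
Scaled log2 intensity (log2 processed intensity minus the array's 75th percentile) of the 8 probes on each array, with si-uc.323 on the left and si-scramble on the right of each panel. Circles are arrays of slide 1 and triangles arrays of slide 2, and the black mark is the mean with its SD (n = 3). The groups are apart for all 3 Tnrc6b probes, for Tarbp2 and for Xpo5 probe A_64_P011739, and overlap for the rest.

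**Figure D2:**
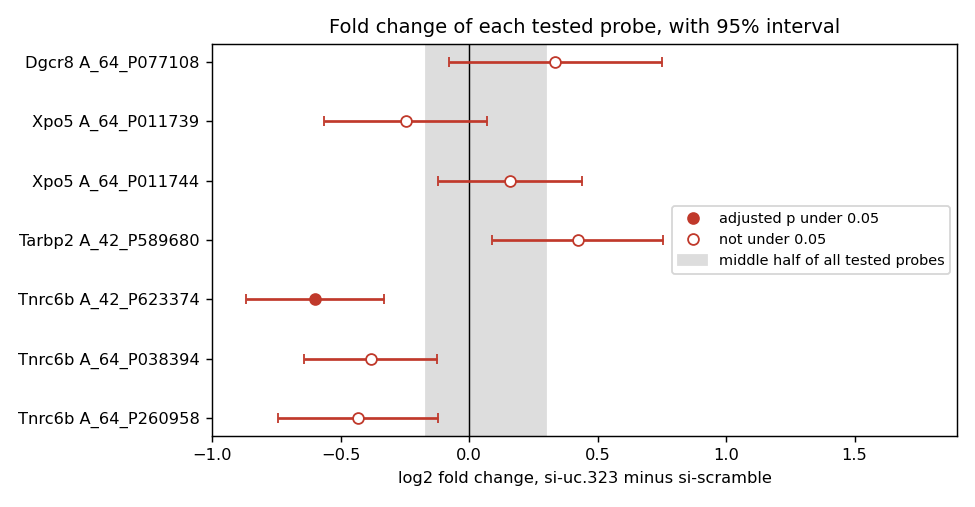
Log2 fold change (si-uc.323 minus si-scramble) of the 7 tested probes with the unadjusted 95% interval of the limma fit. Filled points passed at an adjusted p under 0.05, and the grey band runs from -0.17 to 0.30, the quartiles of all tested probes. Only Tnrc6b probe A_42_P623374 is filled, at -0.60.

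Dgcr8, the RNA-binding subunit of the nuclear cropping complex, was read by 2 probes of the same transcript, of which 1 gave a usable signal. Probe A_64_P077108 had scaled log2 intensities of -3.86, -4.34 and -3.69 on the si-uc.323 arrays, against -4.34, -4.23 and -4.32 on the si-scramble arrays. Replicates 1 and 3 of si-uc.323 lay above all controls, while replicate 2 lay among them, so the groups overlapped. The log2 fold change was 0.34 ± 0.18 (SE, adjusted p = 0.256, limma), with an unadjusted 95% interval of -0.08 to 0.75. The probe passed in 2 of 20 alternative fits, without si-uc.323 replicate 2 (0.52, adjusted p = 0.0376) and with array weights (0.42, adjusted p = 0.0219), which also called 3246 and 6522 of all probes in place of 1295. With normexp background correction the log2 fold change was -0.0063 (adjusted p = 0.978), so no direction is established for Dgcr8. The probe was dim, at 83.1, 84.9 and 138 intensity units on the si-uc.323 arrays against 59.2, 73.8 and 59.0 on the si-scramble arrays. The second probe, A_64_P011233, was well above background on none of the 6 arrays. It read 2.95 to 8.56 units with si-uc.323 and 2.87 to 3.23 units with si-scramble, and the scanner software put its error at 35.4% to 99.8% of the signal, so no fold is given.

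Xpo5 encodes exportin 5, which carries microRNA hairpins out of the nucleus together with the small GTPase Ran. Its brighter probe, A_64_P011739, read 1.53, 1.46 and 1.16 on the si-uc.323 arrays and 1.65, 1.53 and 1.71 on the si-scramble arrays (scaled log2 intensity). All si-uc.323 values lay below all controls, but replicate 1 was separated from the lowest control by less than the spread within either group. The log2 fold change was -0.25 ± 0.14 (SE, adjusted p = 0.273, limma). The dimmer probe, A_64_P011744, read -3.14, -2.99 and -2.93 with si-uc.323, against -3.06, -3.29 and -3.18 with si-scramble, and the groups overlapped. Its log2 fold change was 0.16 ± 0.12 (SE, adjusted p = 0.417, limma). The unadjusted 95% intervals, -0.56 to 0.07 and -0.12 to 0.44, both held 0.

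The 2 Xpo5 probes had opposite signs, and neither passed. The value of the dimmer probe depended on the processing: it was 0.0027 with normexp, 0.033 with quantile normalization, 0.034 with the authors' series values, 0.04 with cyclic loess and 0.055 with a median shift. Within each array the dimmer probe lay below the brighter one by a log2 gap of -4.66, -4.45 and -4.09 on the si-uc.323 arrays, against -4.71, -4.83 and -4.89 on the si-scramble arrays. The gap was narrower on every si-uc.323 array than on any si-scramble array, by 0.41 in the mean. An exact 2-sided permutation test gave p = 0.1 (0.2 adjusted over the 4 probe pairs compared within a gene), and 0.1 is the smallest p that 3 against 3 arrays allow. The narrowest gap was on si-uc.323 replicate 3, the array with the largest share of probes above background, and the part of brightness in this was not tested. Where on the transcript the probes lie is not given in the sources used here.

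Tarbp2 encodes TRBP, which holds double-stranded RNA for Dicer1. It had 1 probe, A_42_P589680, with scaled log2 intensities of -2.30, -2.56 and -2.21 on the si-uc.323 arrays, against -2.72, -2.95 and -2.67 on the si-scramble arrays. Each si-uc.323 value was above each control value, with replicate 2 the lowest in both groups. Before scaling the groups were apart too, at 245, 290.5 and 383 intensity units with si-uc.323 against 182, 178 and 186 with si-scramble. Unscaled values also carry the brightness of the array, so this separation adds little. The 75th percentile was 1205, 1718 and 1775 units on si-uc.323 replicates 1, 2 and 3, against 1201, 1381 and 1182 on the controls. The log2 fold change was 0.42 ± 0.14 (SE, n = 3 and 3 arrays), 1.34-fold, with an unadjusted 95% interval of 0.09 to 0.76. It did not pass over all probes (adjusted p = 0.109, limma). Without si-uc.323 replicate 2 it was 0.53 and passed (adjusted p = 0.0479). It also passed with array weights (log2 fold change 0.41, adjusted p = 0.0257). Both of these settings called more probes of all kinds, as for Dgcr8. The other 18 alternatives did not pass, among them slide 1 alone (0.128) and the slide as a block (0.332), and the log2 fold change ranged from 0.31 to 0.53 over all 20.

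Tnrc6b encodes a GW182 scaffold, the link between Argonaute and the deadenylase complexes, and it had 3 probes, all for the same RefSeq transcript. Probe A_42_P623374 read 0.96, 0.73 and 0.78 on the si-uc.323 arrays, against 1.44, 1.36 and 1.46 on the si-scramble arrays (scaled log2 intensity). All si-uc.323 values were below all control values, and the distance between the groups was larger than the spread within either (SD 0.12 with si-uc.323 and 0.058 with si-scramble). The log2 fold change was -0.60 ± 0.11 (SE, adjusted p = 0.0346, limma), and 2.81% of all tested probes had a log2 fold change as low or lower. Before scaling, the intensities were 2341, 2844 and 3041 units with si-uc.323 and 3267, 3533 and 3259 units with si-scramble, which did not overlap either.

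This probe is printed 10 times on each array, which shows the spread between spots of an array but not the error between arrays. Of the 60 spots on 6 arrays, 4 were flagged as outliers and left out. The coefficient of variation among the kept spots of an array was 2.29% to 3.65%. The scanner software put the error of these spots at 10.0% of the signal. The highest of the kept spots with si-uc.323 read 1.04 and the lowest with si-scramble read 1.22, so no spot of one group reached the range of the other. Spots of an array are repeats of 1 sample and add no replicates to the comparison.

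**Figure D3:**
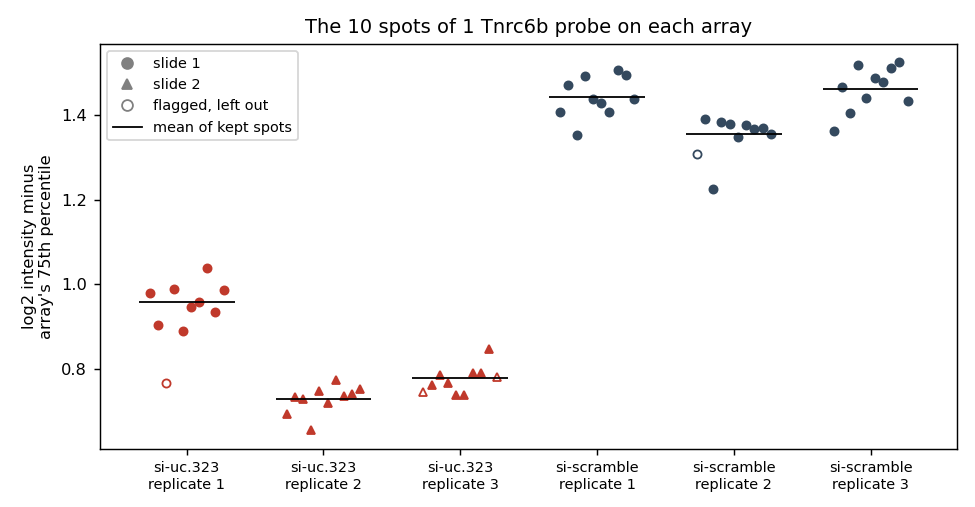
Scaled log2 intensity of the 10 spots of Tnrc6b probe A_42_P623374 on each of the 6 arrays, si-uc.323 at the left and si-scramble at the right. Open symbols are spots flagged as outliers and left out, circles and triangles are slides 1 and 2, and black lines are means of the kept spots. The kept spots run from 0.65 to 1.04 on the si-uc.323 arrays and from 1.22 to 1.53 on the si-scramble arrays.

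The other Tnrc6b probes had readings in the same direction. A_64_P038394 read 0.27, 0.08 and 0.15 with si-uc.323, against 0.61, 0.48 and 0.56 with si-scramble, a log2 fold change of -0.38 ± 0.11 (SE, adjusted p = 0.0817, limma). A_64_P260958 read -5.02, -5.20 and -4.85 with si-uc.323, against -4.70, -4.57 and -4.50 with si-scramble, a log2 fold change of -0.43 ± 0.13 (SE, adjusted p = 0.0926, limma). For both probes the scaled groups were apart, and neither passed. Their intensities before scaling did overlap: A_64_P038394 gave 1455, 1813 and 1966 units with si-uc.323 against 1828, 1928 and 1738 units with si-scramble, and A_64_P260958 gave 37.1, 46.6 and 61.7 units against 46.1, 58.0 and 52.4 units. For these 2 probes the groups were apart only after scaling. A_64_P260958 passed under quantile normalization (adjusted p = 0.0361), a median shift (0.0434), the authors' series values (0.0362), cyclic loess (0.0255) and array weights (0.0144), and A_64_P038394 passed with array weights only (0.024).

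A difference in size between the Tnrc6b probes was not shown. The gap between A_64_P038394 and A_42_P623374 was -0.69, -0.65 and -0.63 on the si-uc.323 arrays, against -0.84, -0.87 and -0.91 on the si-scramble arrays. It did not overlap between the groups, at an exact 2-sided permutation p of 0.1 (0.2 adjusted over 4 pairs), the smallest possible, so this test could not pass. The gaps to A_64_P260958 overlapped between the groups (exact permutation p = 0.5 and 1). With the 3 probes averaged, Tnrc6b had a log2 fold change of -0.47 and passed narrowly (adjusted p = 0.0499, limma).

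The call of A_42_P623374 was lost when probes below background were kept (adjusted p = 0.113, limma) and with the replicate number as a block (0.0586). It was also lost without si-uc.323 replicate 3 (0.0608), and without si-scramble replicate 1, 2 or 3 (0.143, 0.122 and 0.175). On slide 1 alone, where 1 si-uc.323 array stands against all 3 controls and is assumed to vary like them, the log2 fold change was -0.46 and did not pass (adjusted p = 0.0875). The same -0.46 with the slide as a block did not pass either (adjusted p = 0.272). The log2 fold change ranged from -0.71 to -0.46 over all 20 alternatives.

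**Figure D4:**
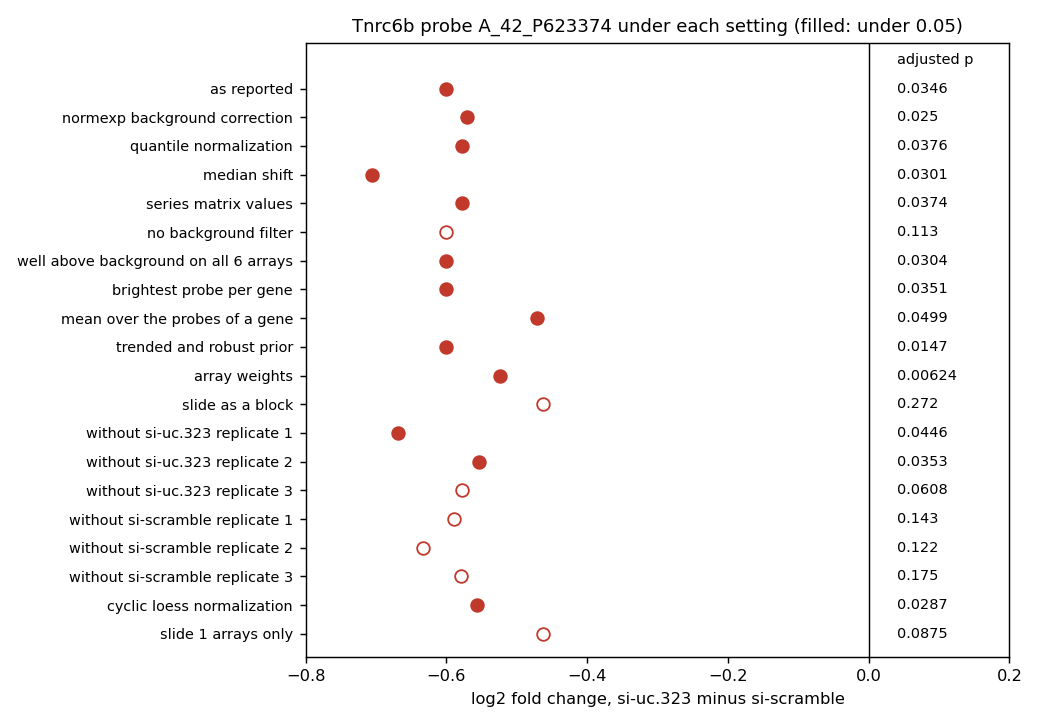
Log2 fold change (si-uc.323 minus si-scramble) of Tnrc6b probe A_42_P623374 as reported and under alternative settings, with the adjusted p of each fit at the right. The fit with the replicate number as a block is not drawn (-0.60, adjusted p = 0.0586, limma). Filled points have an adjusted p under 0.05. All points lie between -0.71 and -0.46, and the open ones include each fit that leaves out a si-scramble array and both fits that allow for the slide.

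Other genes of the pathway were read from 6 lists with 91 genes, of which 70 had a named probe and 65 were tested by their brightest probe. Of these 65, 4 rose and 3 fell, or 6.15% and 4.62%, against 3.31% and 2.99% of all 11579 tested genes. The groups did not overlap for 27.7% of the 65 genes with the higher values in si-uc.323, against 20.1% of all tested genes, and for 9.23% with the lower values, against 19.0%. The median log2 fold change was 0.09, against 0.02 for all tested genes. With so few called genes these shares were not tested against the background. No call in these lists was made without any 1 of the si-scramble arrays, on slide 1 alone, with the slide as a block or with dim probes kept. Without si-uc.323 replicate 1 no gene was called higher and 2 were called lower, and without replicate 3 none was higher and 1 was lower. Without replicate 2 there were 11 higher and 4 lower.

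In the list of nuclear partners of the cropping complex, 2 of 13 tested genes were called higher and none lower. Over all tested genes 3.31% were called higher and 2.99% lower, and no list was tested against these shares. Hnrnpa2b1, an RNA-binding protein that reads primary microRNAs, had scaled log2 intensities of -0.57, -1.04 and -0.41 with si-uc.323, against -1.57, -1.88 and -1.72 with si-scramble. All si-uc.323 values lay above the controls, and the log2 fold change was 1.05 ± 0.18 (SE, adjusted p = 0.0297, limma). This call held in 12 of 20 alternative fits and was lost with the slide as a block (adjusted p = 0.172, limma). Srsf3, a splicing factor that marks primary microRNAs for cropping, rose by 0.52 ± 0.11 (SE, adjusted p = 0.0407, limma), but its second probe read -0.019 and the mean of the 2 probes did not pass (0.25, adjusted p = 0.181), nor did its first probe with a median shift (0.42, adjusted p = 0.084). The helicases Ddx5 and Ddx17, which assist Drosha, read 0.11 and 0.09 and did not pass.

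Of the export partners, 1 of 5 tested genes was called higher and none lower, against 3.31% and 2.99% of all tested genes. Rangap1, which triggers GTP hydrolysis by Ran after export, read -3.58, -4.01 and -3.32 with si-uc.323, against -4.42, -4.49 and -4.46 with si-scramble, and its log2 fold change was 0.82 ± 0.18 (SE, adjusted p = 0.0464, limma). With normexp it was 0.36 and did not pass (adjusted p = 0.151), nor did it without si-uc.323 replicate 1 (0.0755) or 3 (0.0747). Ran itself read 0.19 ± 0.11 and did not pass (adjusted p = 0.282).

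No gene of the 21 tested in the list of Argonaute loading and cofactors was called. Of all tested genes 3.31% were called higher and 2.99% lower. The lowest adjusted p belonged to the helicase Ddx20 (0.38 ± 0.12, SE, adjusted p = 0.104, limma) and the co-chaperone Dnaja2 (0.35 ± 0.11, SE, adjusted p = 0.104, limma). Prkra, the paralogue of Tarbp2 that also partners Dicer1, read 0.28 ± 0.16 and did not pass (adjusted p = 0.286). The chaperones Hsp90aa1 and Hsp90ab1, which hold Argonaute open for loading, read -0.01 and -0.06. Ago3 and Ago4 were matched to no probe and were not analysed here.

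Downstream of the GW182 proteins, in deadenylation, decapping and decay, 1 of 16 tested genes was called higher and 1 lower. The shares over all tested genes were 3.31% and 2.99%. Pabpc1, the poly(A)-binding protein that GW182 proteins contact, read 4.30, 4.40 and 4.32 with si-uc.323, against 4.99, 4.92 and 5.00 with si-scramble. The groups were far apart relative to their spread, and the log2 fold change was -0.63 ± 0.10 (SE, adjusted p = 0.0265, limma). This call held in 13 of 20 alternative fits and was lost with the slide as a block (adjusted p = 0.182, limma). Cnot6l, a deadenylase of the CCR4-NOT complex, read -4.18, -4.48 and -4.08 against -4.93, -5.00 and -4.92, a log2 fold change of 0.70 ± 0.13 (SE, adjusted p = 0.0356, limma). For this dim probe normexp gave 0.17, which did not pass (adjusted p = 0.409). The other 14 genes did not pass, among them Cnot1, the scaffold of that complex, at -0.13, and the helicase Ddx6 at -0.03. Over the 16 genes the median log2 fold change was -0.04.

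Among genes of small RNA tailing and turnover, 1 of 9 tested genes was called lower and none higher. The shares over all tested genes were 2.99% and 3.31%. Zc3h12a, an endonuclease that cuts microRNA hairpins and some messengers, read -6.00, -6.28 and -6.08 with si-uc.323, against -5.59, -5.52 and -5.36 with si-scramble, a log2 fold change of -0.63 ± 0.13 (SE, adjusted p = 0.0384, limma). The probe was dim, and the call was lost with normexp (-0.39, adjusted p = 0.113) and with a trended and robust prior (adjusted p = 0.0801). Of the Piwi genes, relatives of the Argonautes known from the germ line, only Piwil2 was tested and it fell. It read -3.77, -3.94 and -3.88 with si-uc.323, against -3.07, -3.38 and -3.13 with si-scramble, a log2 fold change of -0.67 ± 0.13 (SE, adjusted p = 0.0346, limma). Only 1 of the 2 Piwil2 probes was tested, and its call was lost in 7 of the 20 alternative fits.

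**Figure D5:**
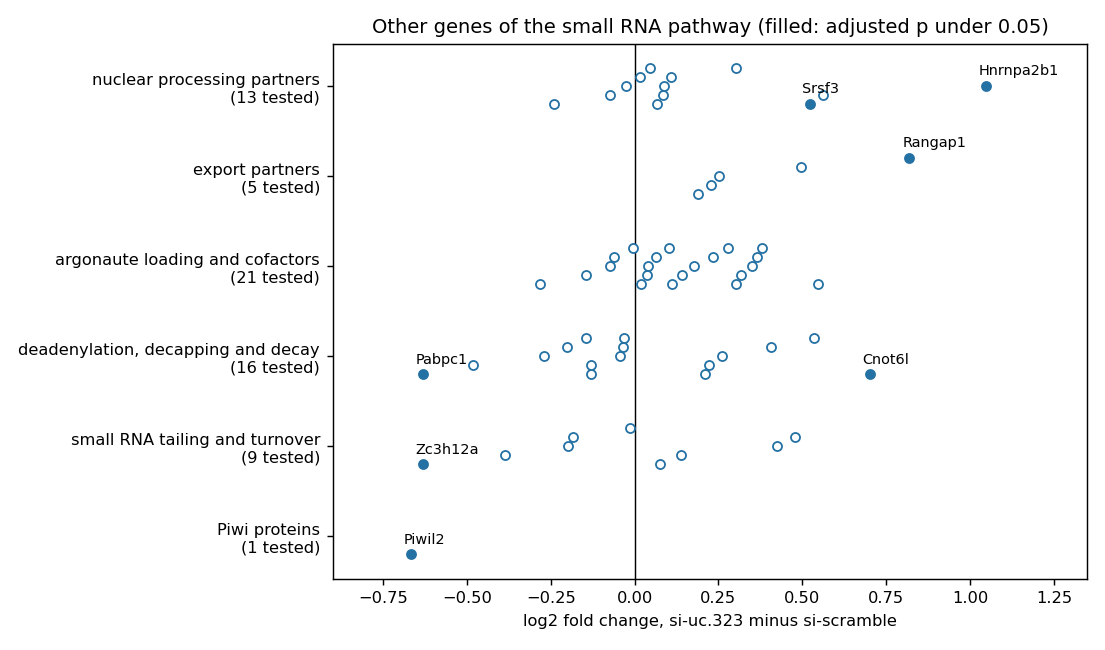
Log2 fold change (si-uc.323 minus si-scramble) of the 65 tested genes of 6 lists of the small RNA pathway, 1 point per gene (its brightest probe), spread vertically within a list for legibility. Filled and named points passed at an adjusted p under 0.05: 4 genes above 0 and 3 below 0.

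The scaling shifts these counts as a whole. Of 1295 probes called in all, 59.2% were higher in si-uc.323, against 40.6% with a median shift, 46.7% with quantile normalization and 47.5% with normexp. The median log2 fold change of all tested probes moved by -0.10 with the median shift and by -0.12 with normexp. Relative to those medians, Tnrc6b probe A_42_P623374 stayed negative, at -0.71 against -0.05 with the median shift and -0.57 against -0.06 with normexp.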

How the data were processed

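Each of 6 cultures gave total RNA for 1 Agilent array in a single colour (Cy3), per the labels' protocols. Per the submitters' processing notes, the authors used Feature Extraction 11.0.1.1 from Agilent, which gave the deposited spot intensity, background-subtracted within each array and not normalized between arrays, with its error estimate and 0 or 1 flags of other kinds. The authors' deposited value matrix holds log2 values whose median is 6.51 in every column, with scaling and centring unknown. It correlated with the scanner values at 0.995 to 0.999 and was an alternative only.

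Control spots and spots flagged as outliers (322 to 594 of 42877 per array) were left out, no spot was saturated, the log2 intensity was shifted by the array's 75th percentile (1182 to 1775 units), and spots of a probe were averaged; 44 probes with a missing value were dropped. Of 30367 probes, 18005 were named by unversioned accession through a RefSeq table of assembly GRCr8; no coordinates were used, since the headers give build rn4. Each probe was tested on its own (limma 3.58.1, R 4.3.3, data.table version 1.17.8) without covariates. Groups and replicate numbers came from sample titles. The spread behind a p-value is that among these cultures together with their arrays. Within si-uc.323 it also holds the difference between slides 1 and 2. Alternatives covered background correction, normalization, filters, probe summaries, the slide and single arrays. Slides were inferred from scan identifiers. Members and lists were chosen with earlier results of these data known. Every member probe was named, with up to 4 called genes of each list or the 2 with the lowest adjusted p. A few others were named after their values were seen: Ddx5, Ddx17, Ran, Prkra, Hsp90aa1, Hsp90ab1, Cnot1, Ddx6, Postn, Kdr, Cd68, Tie1, Tek, Ptprc, Csf1r, Pecam1, Cdh5 and Cd163. The planned search for genes with patterns like Dicer1, Ago2 and Drosha was not made, as these had no matched probe. On data simulated for this comparison with 21990 probes, 200 of them changed, the fit recovered 1% of changes of 0.5 (log2), 74% of changes of 1 and 98% of changes of 2, with 5 false calls. The fit of the arrays themselves called 1295 probes. The adjusted p depends on how many probes change, so these recovered shares need not hold for the arrays. Plots used Python 3.11.15 and matplotlib 3.10.9.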

Additional observations from a re-analysis of the deposited data

How the results depend on the processing

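Depth is not defined for arrays; their number and the signal over background limit the precision, and the cause of the changes below was not tested beyond what each setting removes. Called silencing machinery probes, 0 higher and 1 lower as reported, were 1 and 3 at an unadjusted p under 0.05, 2 and 3 with array weights, 0 and 2 with cyclic loess, a median shift, the series values and quantile normalization, and 0 and 0 with no background filter, with the slide as a block and on slide 1 alone. Leaving out 1 array gave 0 to 2 higher and 0 to 1 lower. Their median log2 fold change, -0.25, was -0.35 with a median shift, -0.043 with no background filter (which adds the dim Dgcr8 probe), 0.044 for the brightest probe and 0.15 for the mean of each gene, -0.10 with the slide as a block and on slide 1 alone, and -0.32 to -0.13 without 1 array. Dgcr8 probe A_64_P077108 changed sign with normexp (-0.0063). Of all probes, 1295 were called as reported, 6221 at an unadjusted p under 0.05, 2152 with a trended and robust prior, 6522 with array weights, 2259 with cyclic loess, 9 with the slide as a block, and 0 with no background filter (5676 at an unadjusted p under 0.05) and on slide 1 alone (6577). Without 1 array the count ran from 0 to 3246: leaving out si-uc.323 replicate 1, 2 or 3 gave 945, 3246 and 512, and leaving out si-scramble replicate 1, 2 or 3 gave 0, 19 and 0 (4308, 4497 and 3804 at an unadjusted p under 0.05). The pathway lists, with 4 genes higher and 3 lower, had 13 and 6 with array weights, 0 and 0 with no background filter, the slide as a block or slide 1 alone, and 0 to 11 higher and 0 to 4 lower without 1 array. Cyclic loess and slide 1 alone were chosen after seeing the data.

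Same-numbered samples were treated as unpaired in the reported fit. Their deviations from the group means correlated at 0.20, 0.38 and -0.11, against -0.55 to 0.47 for differently numbered samples. With 3 arrays per group these values cannot settle whether the samples were paired. With the replicate number as a block, 0 silencing machinery probes were called lower (Tnrc6b probe A_42_P623374 at an adjusted p of 0.0586), 1 pathway gene was called lower (Srsf3, Pabpc1 and Zc3h12a lost their calls, at adjusted p of 0.0744, 0.0527 and 0.0599) and 803 probes were called in all.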
